A study of Mus musculus with 8 samples.

Results

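The genes described are 5 subunits of the phagocyte NADPH oxidase, Cybb, Cyba, Ncf1, Ncf4 and Rac2, taken by gene name from a table of 25766 entries measured by RNA-seq in 8 subcutaneous mouse tumors. The 4 shXBP1 tumors and the 4 shNT tumors grew from MC38-OVA cells, a line labelled as colon adenocarcinoma, in C57BL/6J mice, which the labels give as female, and the series asks what XBP1 in the cancer cells does to the myeloid cells of the tumor. The hairpins were in the injected cells, so the host cells within each tumor carried none, and RNA of whole tumors was measured. The labels do not give the age of the mice, whether the hairpin lines were clones or pools, or whether each mouse gave a single tumor, so p-values reflect only the variation among these 8 tumors, which may be partly technical. All 5 genes passed the filter on low counts.

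The oxidase, also called NOX2, moves electrons from NADPH across a membrane onto oxygen and so makes superoxide, the start of the respiratory burst of phagocytes. Its catalytic core sits in the membrane as a pair of proteins, encoded by Cybb and Cyba. It stays inactive until a cytosolic complex, which includes the products of Ncf1 and Ncf4, and a Rac GTPase bound to GTP move to the membrane and dock on it. The enzyme is best known from neutrophils, monocytes and macrophages. Patients who lack a subunit of the membrane pair or of the cytosolic complex suffer from chronic granulomatous disease.

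Xbp1, the gene the hairpin is named for, stood at 77.2, 76.0, 73.7 and 56.6 CPM (counts scaled to library size with TMM factors) in shXBP1 tumors 1 to 4, against 97.3, 96.0, 102.5 and 109.1 CPM in shNT tumors 1 to 4. The groups did not overlap, and the log2 fold change, here always shXBP1 over shNT, was -0.51 (SE 0.10; edgeR quasi-likelihood test, adjusted p = 0.00254). Libraries held 29070605 to 36012997 counts. On the first principal component shXBP1 tumor 4 lay at 16.2, apart from the other shXBP1 tumors (43.1 to 48.7) and from the shNT tumors (-52.0 to -28.1), and the fold changes of the 5 subunits are also given without it. Of the epithelial markers Krt8, Krt18, Krt19, Epcam, Cdh1 and Krt20, Krt8 summed to 11 counts over shXBP1 tumors and 19 over shNT tumors, and Krt18 to 4 and 0, so these keratins of colon epithelium were near absent. Cdh1, which encodes E-cadherin, was detected, at 8.30 CPM over shXBP1 tumors and 5.93 CPM over shNT tumors. Krt19 summed to 22 counts over shXBP1 tumors and 71 over shNT tumors, Epcam to 63 and 18, and Krt20 to 20 and 2. Krt19, Epcam and Cdh1 were tested and did not pass an edgeR adjusted p of 0.05.

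The promoter windows of Cybb, Cyba and Ncf1 are shown because the promoter table held them, while it had no entry for Ncf4 or Rac2, and because their letters can be set beside the levels of the transcription factors given further on. They run from 250 bases before to 50 bases after the start site (RefSeq, GRCm38.p6, printed 5′ to 3′ on the gene's own strand, which is minus for all 3). The Cybb window is chrX:9469275-9469574, the Cyba window chr8:122432891-122433190 and the Ncf1 window chr5:134229576-134229875. The Cybb window lies inside the gene span given below (9435252 to 9487771), so its RefSeq start site is not the outermost annotated one. Capitals mark matches, on either strand, to the PU.1 core GAGGAA, to the interferon-stimulated response element GAAANNGAAA, to the gamma-activated site TTCNNNGAA or to the CCAAT box.
Cybb: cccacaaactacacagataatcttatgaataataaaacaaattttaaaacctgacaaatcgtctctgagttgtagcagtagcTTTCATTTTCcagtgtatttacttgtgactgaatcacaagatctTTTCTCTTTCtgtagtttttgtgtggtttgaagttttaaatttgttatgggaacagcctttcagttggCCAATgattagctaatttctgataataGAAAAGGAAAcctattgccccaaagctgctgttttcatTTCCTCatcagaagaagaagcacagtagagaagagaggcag
Cyba: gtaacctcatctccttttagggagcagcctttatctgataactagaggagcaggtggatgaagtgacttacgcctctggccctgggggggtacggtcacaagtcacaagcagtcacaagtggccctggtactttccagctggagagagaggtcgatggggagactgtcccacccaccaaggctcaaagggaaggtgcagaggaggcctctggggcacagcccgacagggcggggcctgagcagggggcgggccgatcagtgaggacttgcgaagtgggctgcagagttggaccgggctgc
Ncf1: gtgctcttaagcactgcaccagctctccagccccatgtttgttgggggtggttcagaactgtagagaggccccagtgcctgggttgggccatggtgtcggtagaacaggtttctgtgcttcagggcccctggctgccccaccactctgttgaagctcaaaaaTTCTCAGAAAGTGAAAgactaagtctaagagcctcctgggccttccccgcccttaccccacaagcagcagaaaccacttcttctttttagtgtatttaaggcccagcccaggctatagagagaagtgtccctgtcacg

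The Cybb window, with a GC content of 35.3%, held 1 PU.1 core, beginning 10 bases into the transcript on the minus strand of the window. It also held 3 matches to the interferon-stimulated element, beginning at -168, -124 and -29 from the start site, and 1 CCAAT box at -56. The Ncf1 window (GC content 54.0%) held 1 interferon-stimulated element at -82 and 1 gamma-activated site at -88, and the pair of matches share bases. The Cyba window (GC content 60.7%) held none of the 4 motifs. Among 32851 promoter windows of the same length, 28.3% held the PU.1 core, 3.44% the interferon-stimulated element, 8.30% the gamma-activated site and 37.4% the CCAAT box. These matches describe letters and show no binding.

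The shXBP1 tumors had more RNA of all 5 subunits, by 1.65-fold for Cyba up to 2.88-fold for Rac2. Of 14907 tested genes 16.9% were called higher and 30.0% were called in either direction (edgeR quasi-likelihood test). For each of the 5, every shXBP1 tumor lay above every shNT tumor, which held for 16.6% of all tested genes. The median log2 fold change of the 5 was 1.24, beside -0.01 over all tested genes. In whole tumors, more cells of a type and more RNA per cell cannot be told apart.

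**Figure D1:**
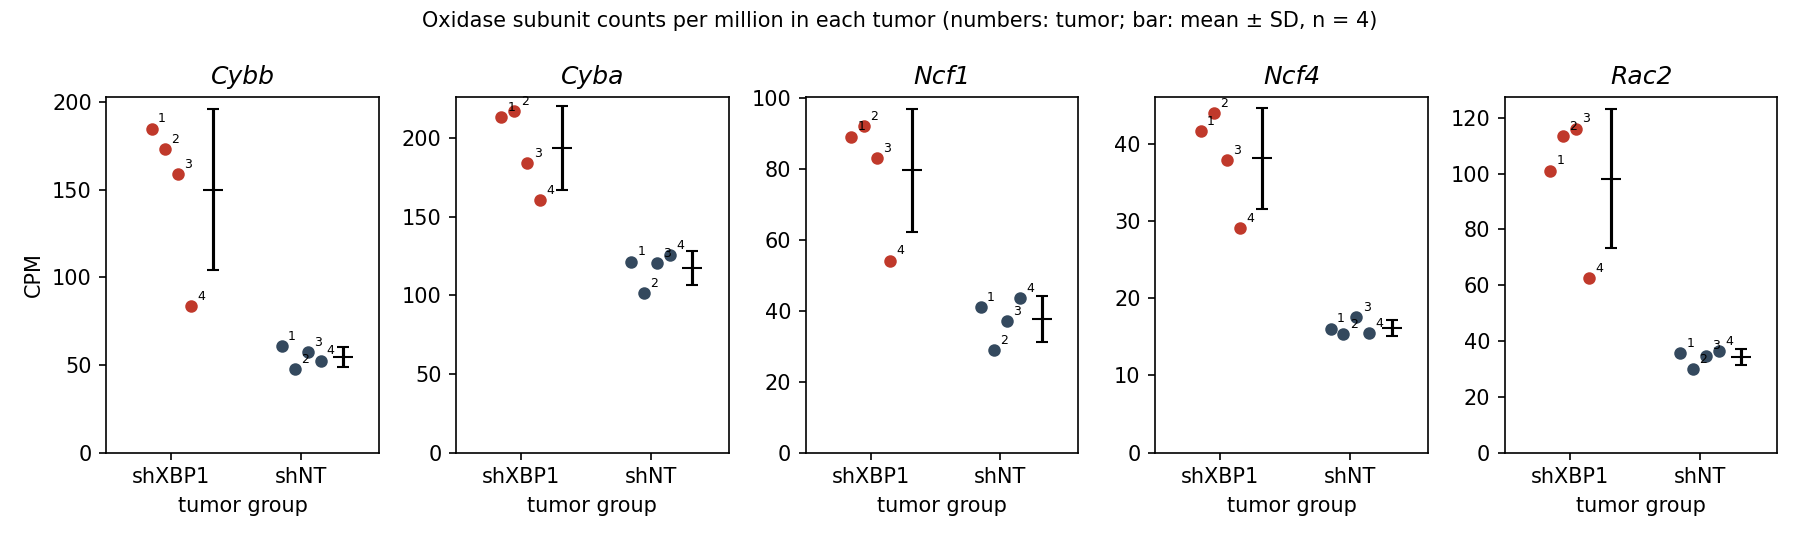
CPM of Cybb, Cyba, Ncf1, Ncf4 and Rac2 (vertical axes, from 0) in the shXBP1 and shNT tumors, 1 point per tumor with its number, and the mean with SD of 4 tumors as a bar. In each panel all shXBP1 points lie above all shNT points, and shXBP1 tumor 4 is the lowest of its group, with 83.4 CPM for Cybb.

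Cybb encodes the catalytic subunit, which carries the heme and flavin groups that pass the electrons (chromosome X, 9435252 to 9487771, minus strand, GRCm38). It stood at 185, 173, 159 and 83.4 CPM in shXBP1 tumors 1 to 4, against 60.5, 47.5, 57.1 and 52.4 CPM in shNT tumors 1 to 4. The shNT tumors were close to each other, and shXBP1 tumor 4 lay between them and the other shXBP1 tumors. The log2 fold change was 1.46 (SE 0.23, edgeR adjusted p = 0.00151), and 1.67 (SE 0.10) without shXBP1 tumor 4.

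Cyba encodes the partner that stabilizes the catalytic subunit in the membrane and offers the docking site for the cytosolic complex, and it also serves other NADPH oxidases outside phagocytes (chromosome 8, 122424776 to 122432930, minus strand). Its level was 214, 217, 184 and 161 CPM in shXBP1 tumors 1 to 4, against 121, 102, 120.5 and 126 CPM in shNT tumors 1 to 4. All shXBP1 values lay above all shNT values, with tumor 4 lowest of the shXBP1 group and tumor 2 lowest of the shNT group. The log2 fold change was 0.72 (SE 0.11, edgeR adjusted p = 0.000425), the smallest of the 5, and 0.81 (SE 0.09) without shXBP1 tumor 4. Gm20388, annotated on the other strand (119910841 to 124345722), spans all of Cyba and had a total of 0 counts.

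Ncf1 encodes the organizer of the cytosolic complex, whose phosphorylation frees it to bind the membrane pair (chromosome 5, 134220053 to 134229625, minus strand). Its level was 89.0, 92.0, 83.1 and 54.1 CPM in shXBP1 tumors 1 to 4, against 40.9, 28.9, 37.1 and 43.5 CPM in shNT tumors 1 to 4. The gap between the groups was narrow, with shXBP1 tumor 4 and shNT tumor 4 nearest to each other. The log2 fold change was 1.08 (SE 0.18, edgeR adjusted p = 0.00124), and 1.23 (SE 0.12) without shXBP1 tumor 4. Ncf1 overlaps Gtf2ird2 on the other strand (134184019 to 134224355), from 134220053 to 134224355, a large part of the span of Ncf1. Since the strand setting of the counting is not given, reads from the shared stretch cannot be told apart. Gtf2ird2 itself averaged 15.2 ± 1.82 CPM in shXBP1 tumors and 18.8 ± 2.32 CPM in shNT tumors (SD, n = 4 each), with a log2 fold change of -0.31 (edgeR adjusted p = 0.0813).

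Ncf4 encodes the adaptor that binds a phosphoinositide of the phagosome membrane and keeps the complex there (chromosome 15, 78244801 to 78262580, plus strand). Its level was 41.6, 43.9, 37.9 and 29.1 CPM in shXBP1 tumors 1 to 4, against 16.1, 15.3, 17.6 and 15.5 CPM in shNT tumors 1 to 4. The groups did not overlap, and the shNT values lay within a narrow band. The log2 fold change was 1.24 (SE 0.13, edgeR adjusted p = 3.74e-05), and 1.36 (SE 0.10) without shXBP1 tumor 4.

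Rac2 encodes the Rac GTPase of blood cells, which turns the assembled oxidase on and also shapes the actin skeleton of phagocytes and lymphocytes (chromosome 15, 78559167 to 78572783, minus strand). Its level was 101, 113, 116 and 62.4 CPM in shXBP1 tumors 1 to 4, against 35.8, 29.9, 34.7 and 36.2 CPM in shNT tumors 1 to 4. The groups were well apart, again with shXBP1 tumor 4 nearest to the shNT tumors. The log2 fold change was 1.52 (SE 0.17, edgeR adjusted p = 0.000173), the largest of the 5, and 1.70 (SE 0.09) without shXBP1 tumor 4. The authors' deposited table gives log2 fold changes of 1.46 for Rac2, 1.38 for Cybb, 1.21 for Ncf4, 1.03 for Ncf1 and 0.71 for Cyba, in the same order.

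Levels of different genes were compared as the authors' FPKM, a measure scaled to gene length and to library size. The length used was not fixed for every gene. Duoxa1 stood at 5.64 and 5.58 CPM in shNT tumors 1 and 4, but at 3.75 and 4.48 FPKM. Cyba stood far above the rest, at 231 ± 23.3 FPKM in shXBP1 tumors and 139.9 ± 8.70 FPKM in shNT tumors (SD, n = 4 each). In the shXBP1 tumors Rac2 followed with 28.9 ± 6.25 FPKM, then Cybb with 27.7 ± 7.61, Ncf1 with 25.6 ± 4.67 and Ncf4 with 23.0 ± 3.11 FPKM (SD, n = 4). In the shNT tumors Ncf1 came after Cyba with 12.1 ± 1.79 FPKM, then Rac2 with 10.2 ± 0.475, Cybb with 10.1 ± 0.859 and Ncf4 with 9.76 ± 0.557 FPKM (SD, n = 4). Within either group the ranges of these 4 genes overlapped. Within single tumors, Ncf1 was above Rac2, Cybb and Ncf4 in all 4 shNT tumors, while Rac2 was above Ncf1 in all 4 shXBP1 tumors. These orders were not tested.

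**Figure D2:**
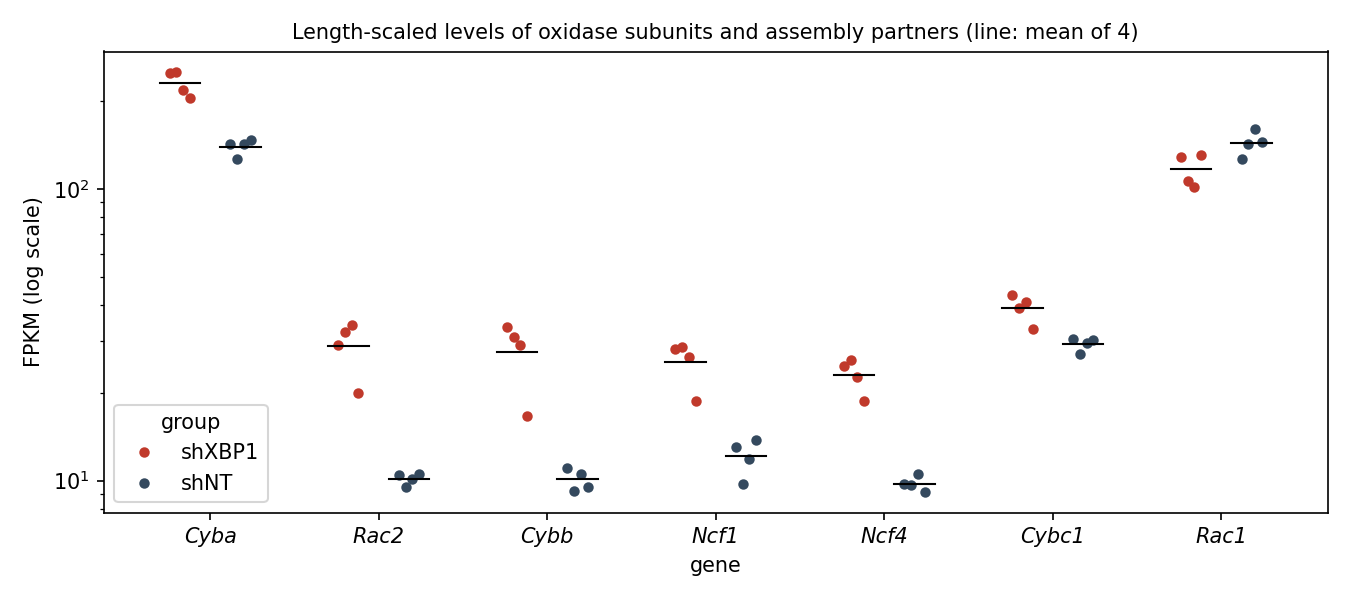
FPKM on a log axis for the 5 subunits and for Cybc1 and Rac1, 1 point per tumor, shXBP1 left and shNT right of each gene, with the mean of 4 tumors as a line. Cyba and Rac1 lie near or above 100 FPKM in both groups, and Rac2, Cybb, Ncf1 and Ncf4 lie between 9.17 and 34.0 FPKM.

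Whether the subunits moved by the same amount was examined with the log2 ratio of CPM within each tumor, for 10 ratios in all. Cyba to Cybb was 0.21, 0.33, 0.21 and 0.94 in shXBP1 tumors 1 to 4, against 1.004, 1.10, 1.08 and 1.26 in shNT tumors 1 to 4. The ratio was thus lower in every shXBP1 tumor, with tumor 4 close to the shNT values. The difference of means was -0.69 (two-sided exact permutation p = 0.0286, the smallest that 4 against 4 tumors can give; 0.0952 adjusted over the 10 ratios). Without shXBP1 tumor 4 the difference was -0.86 (exact permutation p = 0.0286), and without any 1 of the shNT tumors the exact permutation p was 0.0571. Ncf1 to Cybb differed by -0.34 (exact permutation p = 0.0571, adjusted 0.143) and, without shXBP1 tumor 4, by -0.42 (exact permutation p = 0.0286). Ncf4 to Cybb differed by -0.18 (exact permutation p = 0.286) and Rac2 to Cybb by 0.08 (exact permutation p = 0.514), both with overlapping groups.

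Rac2 was also set against Rac1, the Rac GTPase found in nearly all cells. Rac2 to Rac1 was -2.38, -1.97, -2.06 and -2.95 on the log2 scale in shXBP1 tumors 1 to 4, against -3.85, -4.11, -4.25 and -4.04 in shNT tumors 1 to 4. The groups did not overlap, and the difference of means was 1.72 (two-sided exact permutation p = 0.0286, adjusted 0.0952), and 1.93 without shXBP1 tumor 4. Rac1 averaged 484 ± 33.7 CPM in shXBP1 tumors and 573 ± 69.4 CPM in shNT tumors (SD, n = 4 each), with a log2 fold change of -0.24 that did not pass (edgeR adjusted p = 0.0790). Rac1 stayed the more abundant by length-scaled level, at 117 ± 15 FPKM in shXBP1 tumors and 144 ± 14.1 FPKM in shNT tumors, against the Rac2 values given above.

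Ptprc, which encodes CD45 and is carried by nearly all leukocytes, moved with the subunits. It stood at 156, 193, 170.5 and 94.8 CPM in shXBP1 tumors 1 to 4, against 59.4, 42.5, 66.5 and 56.3 CPM in shNT tumors 1 to 4, and was 2.73-fold higher. Per tumor, the log2 ratio of Cybb to Ptprc was 0.24, -0.16, -0.10 and -0.18 in shXBP1 tumors 1 to 4, against 0.03, 0.16, -0.22 and -0.11 in shNT tumors 1 to 4. These values overlapped, with a difference of means of -0.02 (two-sided exact permutation p = 0.943). Rac2 to Ptprc differed by 0.06 (exact permutation p = 0.600) and Ncf4 to Ptprc by -0.20 (exact permutation p = 0.229).

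Cyba and Ncf1 were set against Ptprc in the same way. The log2 ratio of Cyba to Ptprc was 0.45, 0.17, 0.11 and 0.76 in shXBP1 tumors 1 to 4, against 1.03, 1.25, 0.86 and 1.16 in shNT tumors 1 to 4. The groups did not overlap, and the means differed by -0.70 (two-sided exact permutation p = 0.0286, adjusted 0.0952; 0.0571 without any 1 of the shNT tumors), and by -0.83 without shXBP1 tumor 4. Ncf1 to Ptprc overlapped between the groups and differed by -0.35 (exact permutation p = 0.0857, adjusted 0.171). Its exact permutation p was 0.0286 without shNT tumor 3, and stayed above 0.05, up to 0.114, with any other tumor left out. When the Ptprc level was added to the edgeR fit as a covariate, 0 of the 5 subunits were called, where 0.899% of all tested genes were called higher. Ptprc itself did not overlap between the groups, so this fit can hardly tell its level from the group. The log2 fold changes were then 0.099 for Cybb, 0.15 for Cyba, -0.0063 for Ncf1, 0.55 for Ncf4 and 0.38 for Rac2, with adjusted p from 0.219 to 0.993, and Ncf4 alone had an unadjusted p under 0.05 (0.0212). In that fit the SE of a gene was 0.252 at the median, compared with 0.122 without the covariate.

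**Figure D3:**
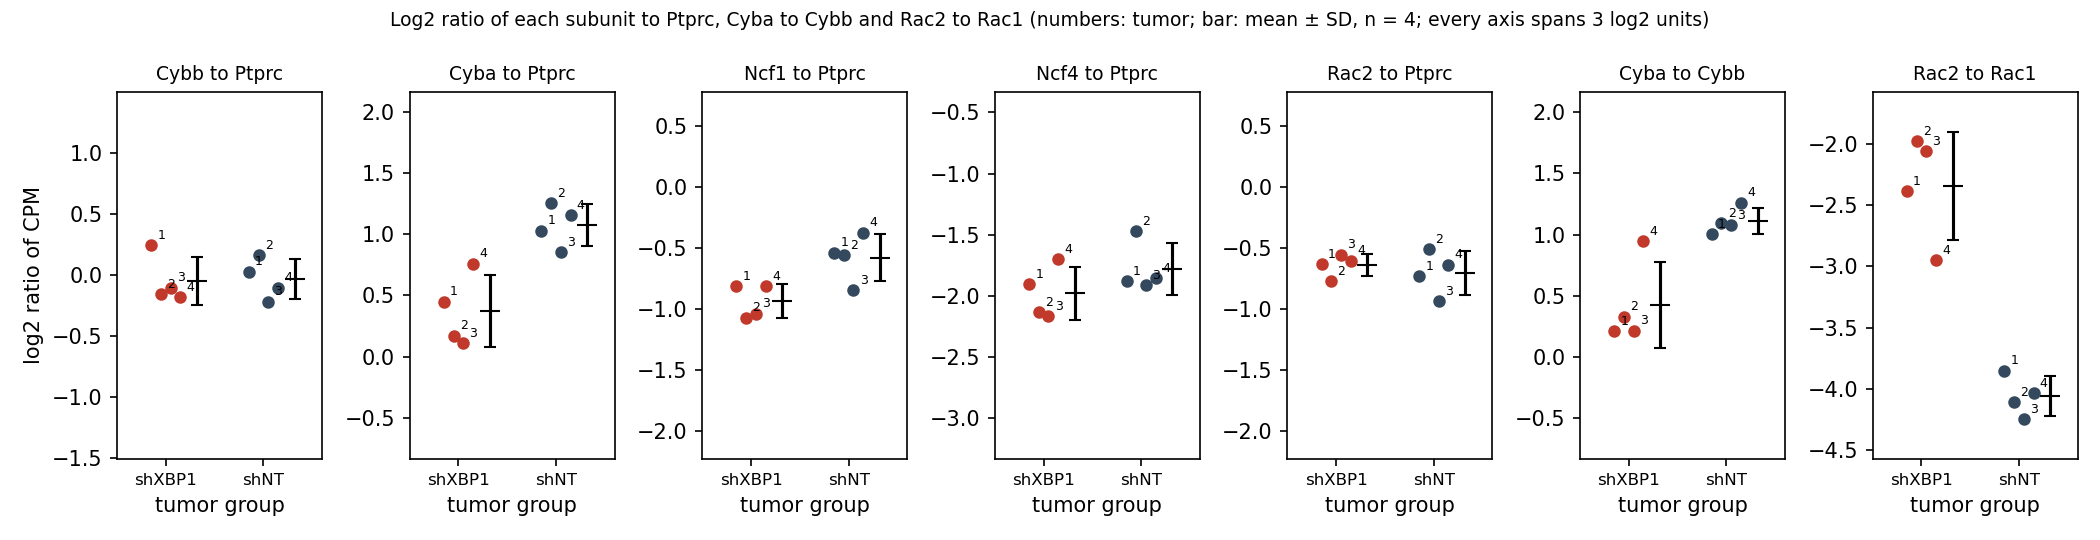
Log2 ratio of CPM within each tumor for the 5 subunits to Ptprc, for Cyba to Cybb and for Rac2 to Rac1, with tumor numbers, and the mean with SD of 4 tumors as a bar; every axis spans 3 log2 units. The shXBP1 and shNT points overlap for Cybb, Ncf1, Ncf4 and Rac2 to Ptprc, and are apart for Cyba to Ptprc, Cyba to Cybb and Rac2 to Rac1.

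Markers of several kinds of leukocyte rose in the same tumors, and their part in the subunit result was not tested. Over all tested genes 16.9% rose, the share to set beside each count below. All 5 pan-leukocyte genes rose, with a summed level of 537 to 886 CPM in shXBP1 tumors and 249 to 344 CPM in shNT tumors. Of 14 macrophage and monocyte genes 13 rose and Mrc1 did not pass, with summed levels of 3240.4 to 6555 CPM in shXBP1 tumors and 2000.3 to 2867 CPM in shNT tumors. Both sums were lowest of the shXBP1 group in tumor 4, as were all 5 subunits. The sums of the T cell, NK cell, B cell, dendritic cell and fibroblast lists were also lowest in that tumor. Those of the neutrophil, the mast cell and eosinophil, and the endothelial lists were not. Of 12 neutrophil genes 5 were tested and 4 of these rose (2 without shXBP1 tumor 1, shNT tumor 2 or shNT tumor 3). Their summed level was only 26.9 to 35.4 CPM in shXBP1 tumors and 7.45 to 12.9 CPM in shNT tumors. The 4 that rose were Csf3r, which encodes the G-CSF receptor (17.2 CPM in shXBP1 tumors and 4.34 CPM in shNT tumors), S100a8 (3.95 CPM in shXBP1 tumors and 0.935 CPM in shNT tumors), S100a9 (4.82 CPM in shXBP1 tumors and 1.69 CPM in shNT tumors) and Mmp8. Ly6g, a surface marker of mouse neutrophils, summed to 11 counts over shXBP1 tumors and 0 over shNT tumors. Of the granule genes made mainly by marrow precursors, Mpo summed to 2 counts over shXBP1 tumors and 0 over shNT tumors. Elane summed to 1 and 0, Camp to 7 and 5 and Ltf to 37 and 9, and Ngp was at 0 in all 8 tumors. Mmp8, a granule gene too, was higher, with 426 counts over shXBP1 tumors and 196 over shNT tumors. All 12 T cell genes rose, with a sum of 134 to 370.3 CPM in shXBP1 tumors and 46.4 to 88.9 CPM in shNT tumors, and these cells also use Rac2. Of the 3 B cell genes tested 2 rose (0 to 2 with 1 tumor left out), at a sum of 4.12 to 6.53 CPM in shXBP1 tumors and 2.08 to 2.90 CPM in shNT tumors, while Ms4a1 and Cd79a had too few counts to test. Of NK cell genes 3 of 4 rose, and of dendritic cell genes 5 of 6 (1 to 6 with 1 tumor left out). The mast cell genes Cpa3, Mcpt4 and Kit rose, while the eosinophil genes Siglecf, Epx and Prg2 had too few counts to test. Of 6 fibroblast genes Col3a1, Dcn, Pdgfra and Pdgfrb rose, and Col1a1 (1.04-fold, edgeR adjusted p = 0.911) and Col1a2 (0.833-fold, edgeR adjusted p = 0.0606) did not pass. The fibroblast list stood at a sum of 6041 to 8136 CPM in shXBP1 tumors and 1872 to 3154 CPM in shNT tumors, most of it Col3a1 (5162 CPM in shXBP1 tumors and 1579 CPM in shNT tumors). Of the endothelial genes 3 of 4 rose.

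The other parts of the oxidase and its regulators were described from 6 lists with 58 further genes. Of the 54 that were tested, 39 rose (16.9% of all tested genes rose), 2 fell (13.1% of all tested genes fell) and 13 did not pass. The same shares stand beside the counts of each list below. The median log2 fold change of the 54 was 0.88. With the Ptprc covariate the median was 0.14 and edgeR called 3 of them, Pik3r5, Itgb2 and Spi1, as higher, where 0.899% of all tested genes were called higher. At an unadjusted p under 0.05 there were 10 of the 54 that were higher, where 8.12% of all tested genes were, and 0 that were lower, where 7.92% of all tested genes were. The log2 fold change was below 0 with the covariate for 14 of the 54 that were above 0 without it, 11 of them called without it.

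Of 3 genes that assist assembly, Cybc1, Rap1a and Rac1, 1 rose. Cybc1, an endoplasmic reticulum protein that the membrane pair needs for its stability, averaged 100.1 ± 13.2 CPM in shXBP1 tumors and 76.8 ± 7.77 CPM in shNT tumors (SD, n = 4 each). It rose 1.30-fold (edgeR adjusted p = 0.0181), a call that was lost without shXBP1 tumor 1 (0.0607), shXBP1 tumor 3 (0.0520) or shNT tumor 2 (0.0638). Rap1a, a small GTPase that copurifies with the membrane pair, averaged 199 ± 34.2 CPM in shXBP1 tumors and 174 ± 13.3 CPM in shNT tumors and did not pass (edgeR adjusted p = 0.226). Its edgeR adjusted p was 0.0331 without shXBP1 tumor 4, and stayed above 0.05, up to 0.487, with any other tumor left out. Rac1, given above, was the other that did not pass.

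Genes listed as upstream signalling all rose, 17 of 17, with a median of 1.16. The list holds kinases and Rac exchange factors, and also Arhgdib, Hvcn1 and Nrros, so the count is not one of activators alone. Pik3r5, a regulatory subunit of the phosphoinositide kinase downstream of chemoattractant receptors, averaged 51.5 ± 3.88 CPM in shXBP1 tumors and 19.0 ± 1.42 CPM in shNT tumors (SD, n = 4 each), 2.71-fold higher. Vav1 and Prex1, exchange factors that load Rac with GTP, were 2.50-fold and 2.27-fold higher. Nrros, which lowers the abundance of the catalytic subunit in mouse phagocytes, rose too, 2.06-fold, to 41.3 ± 6.51 CPM in shXBP1 tumors, against 20.1 ± 2.92 CPM in shNT tumors (SD, n = 4 each). The smallest change of this list was a log2 fold change of 0.35, for Prkcd.

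All 9 receptors that trigger the burst rose (8 or 9 with 1 tumor left out), with a median of 1.37. Itgb2, the beta chain of the leukocyte integrins, averaged 166 ± 19.7 CPM in shXBP1 tumors and 64.3 ± 5.61 CPM in shNT tumors, and C5ar1, the receptor for the complement fragment C5a, 52.4 ± 6.52 CPM in shXBP1 tumors and 26.1 ± 2.19 CPM in shNT tumors (SD, n = 4 each). Fcgr1, an immunoglobulin receptor, was 2.84-fold higher. Fpr2, a receptor for formylated peptides, was 6.00-fold higher, at 29.8 ± 12 CPM in shXBP1 tumors and 4.96 ± 0.679 CPM in shNT tumors (SD, n = 4 each).

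Of 7 transcription factors linked to expression of the subunits 5 rose and 2 did not pass, with a median of 0.85. Spi1, which encodes PU.1 of the myeloid lineage, was at 55.4, 57.9, 57.4 and 47.9 CPM in shXBP1 tumors 1 to 4, against 23.4, 21.0, 22.6 and 27.0 CPM in shNT tumors 1 to 4. These values were well apart, shXBP1 tumor 4 was again the lowest of its group, and the log2 fold change was 1.22 (SE 0.10, edgeR adjusted p = 1.07e-05). Irf8, a myeloid interferon regulatory factor, rose 1.91-fold, and Irf1, an interferon regulatory factor of many cell types, 1.81-fold. Cebpa, a factor of early myeloid development, averaged 38.9 ± 4.54 CPM in shXBP1 tumors and 21.6 ± 5.40 CPM in shNT tumors (SD, n = 4 each) and also rose (log2 fold change 0.85, edgeR adjusted p = 0.00199). For Irf8, Irf1 and Cebpa every shXBP1 tumor lay above every shNT tumor, which held for 16.6% of all tested genes. These genes were named for the smallest p of their list, so such a gap between groups was likely beforehand.

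**Figure D4:**
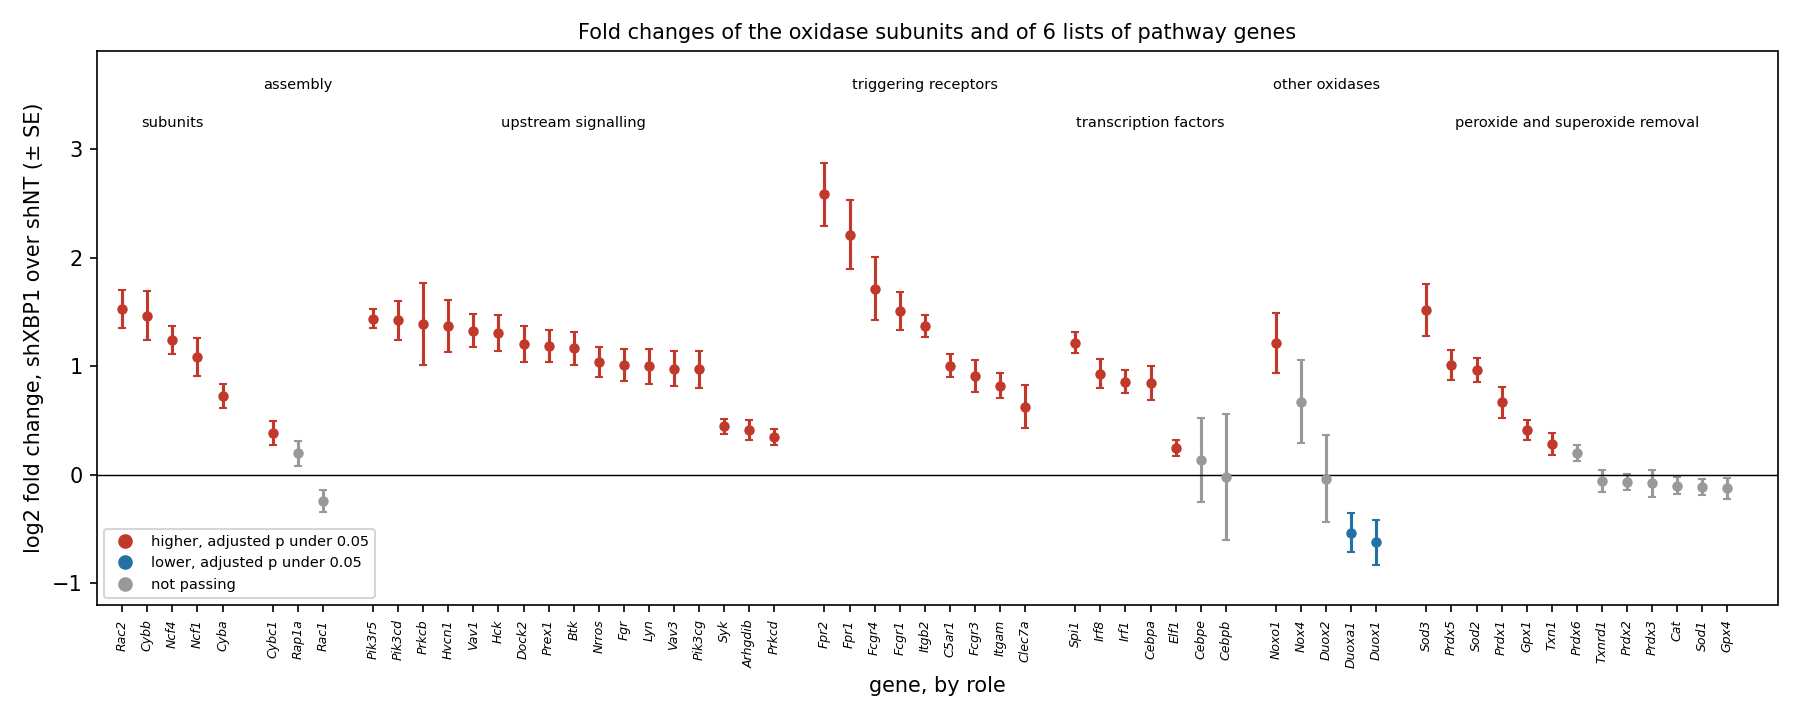
Log2 fold change, shXBP1 over shNT, with its SE for the 5 subunits and the tested genes of 6 lists, ordered by size within each list; red marks genes called higher, blue those called lower and grey those that did not pass. All points of the subunits, of upstream signalling and of the receptors are above 0 and called, and Fpr2 has the highest value, 2.58.

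Other NADPH oxidases and their partners were low in these tumors. Of 9 genes 5 had enough counts to test, and 1 rose, 2 fell and 2 did not pass, with a median of -0.04. Noxo1, the organizer of the NOX1 enzyme, rose 2.32-fold at a low level, 2.93 ± 0.672 CPM in shXBP1 tumors and 1.26 ± 0.340 CPM in shNT tumors. Duox1, a dual oxidase, averaged 2.62 ± 0.300 CPM in shXBP1 tumors and 4.04 ± 0.779 CPM in shNT tumors, and its maturation factor Duoxa1 3.76 ± 0.678 CPM in shXBP1 tumors and 5.44 ± 0.331 CPM in shNT tumors (SD, n = 4 each). The fall of Duox1 (log2 fold change -0.62, edgeR adjusted p = 0.0375) was still called in 2 of 8 fits without 1 tumor and that of Duoxa1 (-0.53, edgeR adjusted p = 0.0417) in 1 of 8. Nox4 did not pass (1.53 ± 0.808 CPM in shXBP1 tumors and 0.953 ± 0.141 CPM in shNT tumors, SD, n = 4 each, edgeR adjusted p = 0.212). Its edgeR adjusted p was 0.0483 without shXBP1 tumor 4, and stayed above 0.05, up to 0.619, with any other tumor left out. Nox1 summed to 4 counts over shXBP1 tumors and 1 over shNT tumors, and Nox3, Noxa1 and Duoxa2 had 0 counts in all tumors.

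Enzymes that remove superoxide and peroxide were split, with 6 of 13 that rose and 7 that did not pass. Sod2, the mitochondrial superoxide dismutase, was 1.95-fold higher, at 199 ± 34.2 CPM in shXBP1 tumors and 102 ± 5.24 CPM in shNT tumors, and Sod3, the extracellular one, 2.86-fold higher, at 25.9 ± 7.38 CPM in shXBP1 tumors and 9.06 ± 2.57 CPM in shNT tumors (SD, n = 4 each). The peroxiredoxins Prdx5 and Prdx1 were 2.01-fold and 1.59-fold higher. The median log2 fold change of this list was 0.20.

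The genes with profiles most like each subunit were found as the smallest root mean square difference between centred log2 CPM profiles over the 8 tumors. For Cybb these were Cd200, Mpeg1 and Themis2, with differences of 0.0993, 0.115 and 0.125. For Cyba they were Gla, Arhgap45 and Tapbpl (0.0522, 0.0724 and 0.0736), and for Ncf1 Trem2 and Ly6c1 were among the nearest (0.0813 and 0.0861). For Ncf4 they were Tlr2, Fgd2 and Adgre5 (0.0863, 0.0934 and 0.0938), and for Rac2 they were Ctss, Pde1b and Lcp2 (0.0990, 0.0999 and 0.101). Between the subunits themselves the difference was smallest for Cybb and Rac2, 0.146, and largest for Cyba and Rac2, 0.423. Ly6c1 belongs to a family of close copies, among which the counting could split reads.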

How the data were processed

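RNA-seq of 8 subcutaneous tumors, 4 shXBP1 and 4 shNT by the genotype in their labels, was analysed from 1 deposited table. The counts were deposited by the authors as whole numbers without normalization, per the file headers, and the deposited FPKM values had been scaled to gene length and to library size, per the file headers. The authors' comparison (log2 fold change and adjusted p, made with DESeq2 per the file headers) is quoted only where named; its sign, checked against the counts, runs shXBP1 over shNT. GRCm38 is the build in the submitters' processing notes. Aligner, counter and strand setting were not given in the sources used here. Positions come from GENCODE M21 (GRCm38) and promoters from RefSeq (GRCm38.p6), which held an entry for 3 of the 5 subunits.

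Low counts were removed with filterByExpr, which left 14907 genes, and libraries were scaled by TMM. Groups were compared with edgeR's quasi-likelihood test (version 4.0.16, R 4.3.3, robust dispersions, all 8 tumors, no covariate), with Benjamini-Hochberg adjustment over all genes and a threshold of 0.05; "rose", "fell" and "called" refer to it. The SE is the absolute log2 fold change divided by the square root of the F statistic. Log2 CPM used a prior count of 2. Ratios were compared by two-sided exact permutation over tumors. The members, gene lists and tests were chosen with earlier results of these data known. Named were the 5 subunits, the assembly list, Ptprc, of each pathway list the 4 genes ranking first by p (or all, if fewer) and the 3 nearest profiles of each subunit (leaving out predicted genes and receptor segments). Prkcd, Gtf2ird2 and the cell markers named were picked after their values were seen. For the 21 symbols on more than 1 identifier the one with the most counts was used. Alternatives were DESeq2 (version 1.42.0), limma voom (version 3.58.1), RLE size factors, no filter, at least 10 CPM in 4 libraries, dispersions without robust estimation, tumor number as replicate block, Ptprc as a covariate, a prior count of 0.5 or FPKM for the ratios, and leaving out each tumor. Some genes and 1 list are not reported here and are left out of the list counts. The fit was tested on simulated counts. Tumors of a group differed by far more than counting noise (chi-square over its degrees of freedom at least 16.2).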

Additional observations from a re-analysis of the deposited data

Results flagged for a closer look

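Among 106 sets of 4 tumors (the named genes and the ratios in each group), 9 held a tumor whose gap to its nearest neighbour was above the 95% critical value of Dixon's test; chance gives about 1 in 20. Tumor 4 of the shXBP1 group was far below the others for Cd200 (4.34 CPM, nearest 8.80), Trem2 (35.6 CPM, nearest 60.3) and Pde1b (8.81 CPM, nearest 17.45), and far above them for the log2 ratio of Cyba to Cybb (0.94, nearest 0.33). Tumor 2 of the shNT group was far above the others for Noxo1 (1.77 CPM, nearest 1.12) and for the log2 ratio of Ncf4 to Ptprc (-1.47, nearest -1.86). It was far below them for Duoxa1 (4.95 CPM, nearest 5.58), Gla (17.9 CPM, nearest 21.3) and Ctss (220.2 CPM, nearest 308).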

How the results depend on the processing

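All 5 subunits kept their direction and their call under DESeq2, limma voom, RLE size factors, both other filters, no robust estimation, the replicate block and each left-out tumor. After adding Ptprc as a covariate none was called (Cybb 0.099, Cyba 0.15, Ncf4 0.55 and Rac2 0.38 on the log2 scale), and among the named genes called without it the sign turned for Ncf1 (-0.0063), Cybc1 (-0.16), Prdx1 (-0.19), Cd200 (-0.029), Mpeg1 (-0.034) and Trem2 (-0.063); of those not called, Nox4 (-1.45) and Rap1a (-0.32) turned too. That fit called 134 genes higher and 106 lower, and 3 pathway genes higher. Of the pathway genes 0 were called lower with the Ptprc covariate, without a filter, under 10 CPM in 4 libraries and with the replicate block, and 0 to 1 with a tumor left out; the stricter filter removes these low genes. Same-numbered tumors did not deviate together (correlations of -0.141 to -0.0247 over tested genes). This gave no sign that the numbers pair tumors, but such correlations cannot exclude a small shared effect. The replicate block called 1302 genes lower, and with same-numbered tumors as a block the ratios of Cyba to Ptprc (-0.70), Cyba to Cybb (-0.69) and Rac2 to Rac1 (1.72) had an exact sign-flip p of 0.125, the smallest that 4 pairs can give. With a tumor left out, 1303 to 2401 genes were lower (1303 without shNT tumor 3), and the differences were -0.83 to -0.61 for Cyba to Ptprc, -0.44 to -0.29 for Ncf1 to Ptprc, -0.86 to -0.61 for Cyba to Cybb and -0.42 to -0.25 for Ncf1 to Cybb. The cause of these changes was not tested.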
